A study of Homo sapiens with 9 samples.

Results

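The comparison described here set Qmimic directly against Dmimic, 2 small RNAs transfected into the same breast cancer cell line. Its members were the 3 arrays titled with Qmimic and the 3 titled with Dmimic, 6 of the 9 arrays of the study, and the model was fitted on these 6 alone. The cells of every group were MDA-MB-231, an established line from a triple-negative breast cancer, one that lacks the oestrogen and progesterone receptors and ERBB2 amplification. They were reverse transfected with Lipofectamine at 600000 cells per well, and RNA was taken at 48 h. The groups were Qmimic at 10 nM, Dmimic at 10 nM and AllStar, a negative control RNA, at 10 nM, each with 3 biological replicates and 1 Affymetrix HG-U133 Plus 2.0 array per replicate. All 3 groups therefore shared the transfection reagent, the dose of RNA and the time, and they represent 1 cell line only. The labels call the replicates biological but do not say that they came from separate cultures or days, so the p-values measure the spread between these wells.

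A microRNA mimic is a synthetic double-stranded RNA whose guide strand is loaded into Argonaute and pairs with messenger RNAs mainly through its seed, the bases near its 5′ end. Messages paired in this way are repressed and often decay, so that a mimic acts first by lowering transcripts and then through what those transcripts encoded. The series title names AXL, a receptor tyrosine kinase, and miR-34a, a microRNA induced by p53 and known for repressing cell cycle and receptor kinase messages. What Q and D mean is not stated in the labels, and the sequence of neither mimic was given in the sources used here. The mature sequences of the natural microRNA, from RefSeq on GRCh38.p14, are shown because they hold the seed by which its targets are defined. The seed, bases 2 to 8 from the 5′ end, is in capitals. Both arms come from the minus strand of chromosome 1, the 5p arm at chr1:9151735-9151756 and the 3p arm at chr1:9151693-9151714.
hsa-miR-34a-5p: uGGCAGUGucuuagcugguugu
hsa-miR-34a-3p: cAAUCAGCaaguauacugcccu

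The 6 mimic arrays were close to one another. Correlations over the 54613 probe sets tested were 0.9977 to 0.9981 within Qmimic, 0.9963 to 0.9975 within Dmimic and 0.9956 to 0.9979 between them. AllStar replicates 1 and 2 correlated at 0.9982, whereas AllStar replicate 3 correlated with the other 8 arrays at 0.974 to 0.9807 and had probe sets for 18S ribosomal RNA at 8.73 on the log2 scale against 5.27 to 6.26 elsewhere. For this reason the place of the control is given by replicates 1 and 2, with replicate 3 added where stated. The line's markers VIM and CD44 were high in both groups. Their mean log2 levels were 13.68 and 12.07 with Qmimic and 13.69 and 12.08 with Dmimic. SPARC, also chosen as a marker of the line, was at 3.48 to 3.90 on the mimic arrays. ESR1, PGR and ERBB2, chosen as genes low in the line, were at 6.84, 3.87 and 8.70 with Qmimic. With Dmimic they were at 6.87, 4.02 and 8.62. The median of a mimic array was 5.44 to 5.48, so only PGR lay below it. Arrays give no depth, and precision is limited by how many there are: the 95% interval reached to either side of a difference by 0.171 on the log2 scale at the median probe set.

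Few transcripts separated the mimics, and nearly all of those that did were lower with Qmimic. Differences are Qmimic minus Dmimic on the log2 scale, and a probe set was called when its limma p, adjusted by Benjamini-Hochberg over all 54613 probe sets, was under 0.05 and the difference reached 1.5-fold. Of the 54613, 34 were called, which is 0.0623%: 33 were lower with Qmimic (0.0604%) and 1 was higher (0.00183%). The calls named 23 genes, 22 lower and 1 higher, through 28 probe sets; 1 further probe set names TMEM135 and DNAJB6 together and 5 name no gene. Among the genes lower with Qmimic were RRAGD, a Rag GTPase that couples amino acids to mTORC1, the kinases MAPK9 (JNK2) and GSK3B, and the secreted proteins CXCL8, FST and EDN1. The gene that was higher was IL7, a growth factor for lymphocytes.

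**Figure D1:**
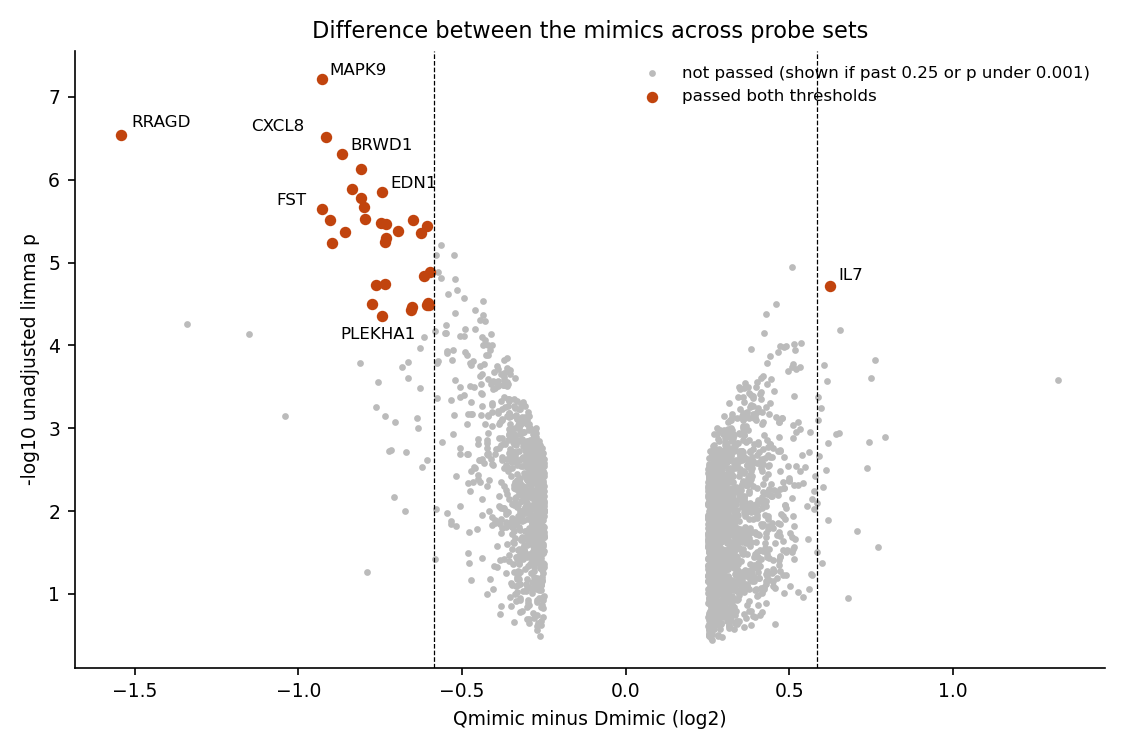
Each point is a probe set, with the Qmimic minus Dmimic difference on the horizontal axis (log2) and the negative log10 of the unadjusted limma p on the vertical axis; probe sets that did not pass are drawn only past a difference of 0.25 or below a p of 0.001, and the dashed lines mark 1.5-fold. Of the 34 probe sets that passed, 33 lie on the left, lower with Qmimic, with RRAGD farthest out at -1.54, and IL7 lies alone on the right at 0.62.

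The interquartile range of an array's log2 values was 3.47 to 3.53 with Qmimic and 3.44 to 3.46 with Dmimic, which did not overlap (exact two-sided permutation p = 0.1, the smallest possible). After quantile normalization was repeated on the 6 arrays, which makes these ranges equal, 35 probe sets were called, among them 33 of the 34. The count moved with the arrays in the model. Among the 6 mimic arrays alone, leaving out Qmimic replicate 1, 2 or 3 gave 8, 0 and 9 calls, and leaving out Dmimic replicate 1, 2 or 3 gave 1, 1 and 25. Without Qmimic replicate 2 the smallest adjusted limma p was 0.0804, and 3750 probe sets had an unadjusted p under 0.05. In 1 limma model of all 9 arrays, AllStar replicate 3 included, no probe set was called, the smallest adjusted p was 0.0654 and 1318 probe sets had an unadjusted p under 0.05. In the model of the 8 arrays without AllStar replicate 3 the count was 44, and these included all 34. Leaving out 1 mimic array from that model gave 24 to 50 calls, with 24 to 30 of the 34 among them. All 34 kept their direction in each of these fits, and 27 to 34 of them still differed by at least 1.5-fold. At all 34 the mimic groups did not overlap, so leaving out an array could not turn the direction. Adding AllStar arrays to the model leaves the difference itself unchanged. The kept direction is therefore no measure of stability.

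Most transcripts differed by little. For 53423 probe sets, 97.8% of those tested, the whole 95% interval of the difference lay inside 1.5-fold in either direction. Only 81 probe sets differed by 1.5-fold or more, 57 of them lower with Qmimic and 24 higher, and 5 differed by at least 2-fold. The split was more even below the call threshold: 2825 probe sets were lower and 2653 higher at an unadjusted limma p under 0.05. The 3 Qmimic arrays lay wholly beyond the 3 Dmimic arrays at 8772 probe sets (16.1%), lower at 4889 (8.95%) and higher at 3883 (7.11%), so that groups which do not overlap are by themselves common in these data.

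The largest separation was that of RRAGD, whose product forms the Rag heterodimer that brings mTORC1 to the lysosome. Its probe set 221523_s_at read 5.13, 5.55 and 5.58 with Qmimic against 6.92, 6.92 and 7.03 with Dmimic. All Qmimic arrays were low and the groups lay far apart. The difference was -1.54 (95% interval -1.79 to -1.28), a level 2.90-fold lower with Qmimic, with an adjusted limma p of 0.00554. The other probe set of the gene, 221524_s_at, read 9.0 to 9.26 with Qmimic and 8.84 to 9.12 with Dmimic and differed by 0.09 (-0.13 to 0.31), so the groups overlapped there and the separation belongs to 1 of the gene's 2 probe sets. SAMTOR, which senses S-adenosylmethionine upstream of mTORC1, was also called: it read 6.75, 6.92 and 6.75 with Qmimic and 7.43, 7.58 and 7.60 with Dmimic, a difference of -0.73 with an adjusted limma p of 0.0138. SAMTOR has 1 probe set, and it is set beside RRAGD for its function, after its values were seen.

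Some calls were genes of protein kinases and of other signalling proteins, again grouped after the calls were seen. MAPK9, the stress-activated kinase JNK2, had the smallest p of all probe sets. On 225781_at it read 7.05, 7.03 and 7.03 with Qmimic and 7.93, 7.99 and 7.98 with Dmimic. The arrays of each group were nearly level and the groups lay wide apart. The difference was -0.93 (-1.06 to -0.80), with an adjusted limma p of 0.0033. The gene's other probe sets did not pass, with differences of -0.02 on 203218_at and -0.18 on 210570_x_at.

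GSK3B encodes the kinase that marks beta-catenin for destruction and restrains glycogen synthase, and it passed on 2 of 5 probe sets. On 226191_at the Qmimic arrays read 7.75, 7.90 and 7.99 and the Dmimic arrays 8.69, 8.75 and 8.70. The groups were apart by -0.84 (-1.0 to -0.67), with an adjusted limma p of 0.011. On 226183_at the levels were 6.22, 6.57 and 6.38 against 7.08, 7.24 and 7.14, a difference of -0.76. Its other 3 probe sets gave -0.58, -0.10 and 0.01 and did not pass. PPP2R1B, a scaffold subunit of protein phosphatase 2A, passed on 202883_s_at with 7.52, 7.60 and 7.66 with Qmimic, 8.31, 8.37 and 8.19 with Dmimic and a difference of -0.70. Its other 4 probe sets ranged from -0.13 to 0.06. PLEKHA1, a phosphoinositide-binding adaptor, was lower on both of its probe sets, by -0.74 on 226247_at with an adjusted limma p of 0.0488 and by -0.47 on 219024_at, which did not pass.

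The calls also held genes for secreted proteins, a grouping made after the calls were seen. FST encodes follistatin, the extracellular protein that binds and neutralises activins, and it passed on 3 of 3 probe sets with differences of -0.93, -0.90 and -0.77. On 204948_s_at it read 9.83, 10.05 and 10.17 with Qmimic and 10.92, 10.95 and 10.96 with Dmimic. The Dmimic arrays lay almost on one value and every Qmimic array lay below them. CXCL8, the neutrophil chemokine interleukin-8, passed on both of its probe sets with -0.92 and -0.90. On 211506_s_at its levels were 6.30, 6.35 and 6.49 with Qmimic and 7.29, 7.31 and 7.29 with Dmimic, with no overlap. The second probe set, 202859_x_at, is of a class whose probes may also bind related transcripts.

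EDN1, the precursor of the vasoconstrictor peptide endothelin-1, read 9.46, 9.50 and 9.50 with Qmimic and 10.16, 10.20 and 10.33 with Dmimic on 222802_at. The difference was -0.74 (-0.90 to -0.59), with an adjusted limma p of 0.011. The gene's other probe sets had the same direction without passing, at -0.53 on 218995_s_at (adjusted limma p 0.0776) and -0.22 on 1564630_at, and at all 3 every Qmimic array lay below every Dmimic array. IL7 stood on the other side: 6.43, 6.45 and 6.27 with Qmimic against 5.66, 5.82 and 5.80 with Dmimic. The difference was 0.62 (0.45 to 0.80), with an adjusted limma p of 0.0311 on the gene's 1 probe set. IL7 passed in 11 of 24 alternative fits, whereas RRAGD and MAPK9 each passed in 20.

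**Figure D2:**
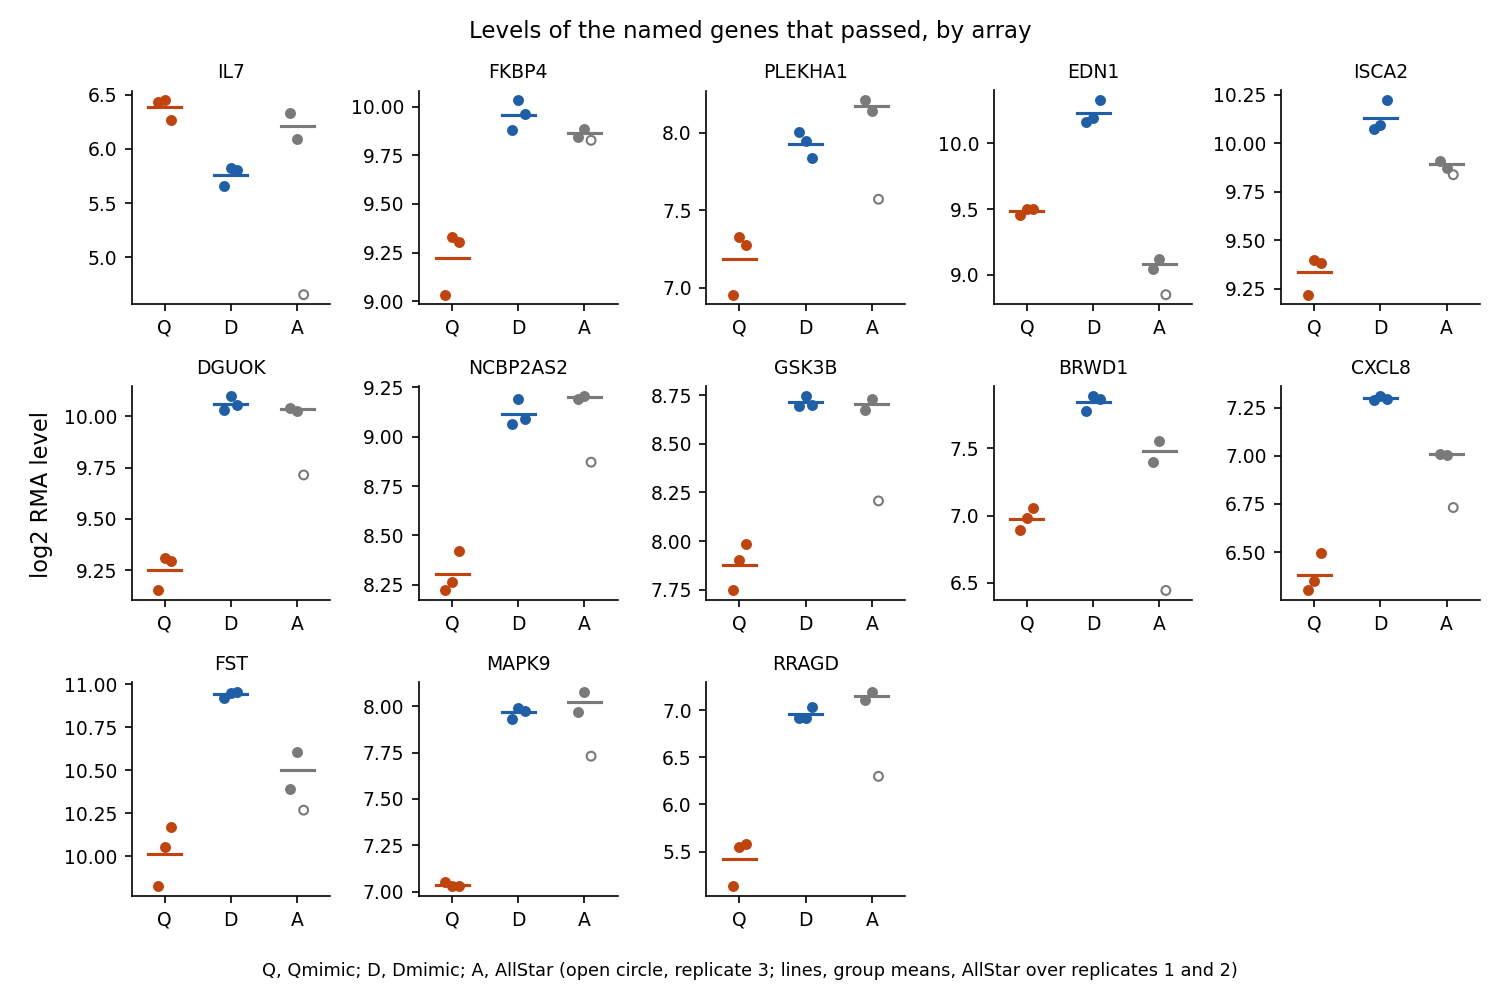
Log2 RMA level of each array for the 13 genes of the naming rule that passed, with a separate vertical axis for each gene; the horizontal axis gives the group (Q, Qmimic; D, Dmimic; A, AllStar), filled points are arrays, the open circle is AllStar replicate 3 and lines are group means. In every panel the 3 Qmimic points lie clear of the 3 Dmimic points, as the naming rule requires. They lie below them in 12 panels and above them for IL7.

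Some of the calls were genes of mitochondrial proteins. DGUOK, the mitochondrial deoxyguanosine kinase, passed on 2 of 3 probe sets: on 209549_s_at it read 9.15, 9.31 and 9.29 with Qmimic and 10.03, 10.10 and 10.05 with Dmimic, a difference of -0.81. ISCA2, which helps to assemble iron-sulphur clusters, read 9.22, 9.40 and 9.38 against 10.07, 10.10 and 10.22, a difference of -0.80 with an adjusted limma p of 0.0123. TIMM17A, a subunit of the inner membrane protein translocase, was lower by -0.63 on 201821_s_at, and its 215171_s_at had an adjusted limma p of 0.0281 with a difference of -0.56, just short of 1.5-fold. For each of these genes the 2 groups were apart on the called probe sets. The grouping by organelle was made after the calls were seen. The share of such genes among all those tested was not counted, so their number cannot be read as an excess.

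The remaining calls covered varied functions. BRWD1, a bromodomain protein of chromatin, read 6.89, 6.98 and 7.05 with Qmimic and 7.78, 7.89 and 7.86 with Dmimic on 225446_at (-0.87), and 4 more of its 8 probe sets had groups that did not overlap, at -0.51 to -0.28. FKBP4, an HSP90 co-chaperone of steroid receptors, was lower by -0.74 on 200895_s_at and by -0.47, without passing, on 200894_s_at. NCBP2AS2, named as the antisense neighbour of NCBP2, read 8.22, 8.27 and 8.42 against 9.06, 9.19 and 9.09, a difference of -0.81 on its 1 probe set. The other called genes were APOLD1 (-0.73), EXT2 (-0.73), which encodes a heparan sulphate polymerase, MORN4 (-0.65), ANKRD37 (-0.65), which is known as a hypoxia-induced gene, REEP3 (-0.61), ANKRD40 (-0.61) and the tetraspanin TSPAN6 (-0.61). At the called probe set of each of these 7, the 3 Qmimic arrays lay below the 3 Dmimic arrays. The groups overlapped on the other probe sets of EXT2 (-0.08), MORN4 (0.09), ANKRD37 (-0.02) and ANKRD40 (-0.15 and 0.06). Those of REEP3 (-0.51) and TSPAN6 (-0.24) had groups apart.

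Probe sets of the same gene did not always move together. Of the 23 called genes, 5 have 1 probe set and 18 have several. Among the 18, only CXCL8 and FST passed on every probe set, and 14 passed on 1 only. In 12 of the 18 all probe sets differed in the called direction, and in 6 (ANKRD40, BRWD1, GSK3B, MORN4, PPP2R1B and RRAGD) at least 1 differed in the other. Of the 34 probe sets of called genes that were not called themselves, 27 differed in the direction of the call. Which transcript forms each probe set reads was not analysed here.

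**Figure D3:**
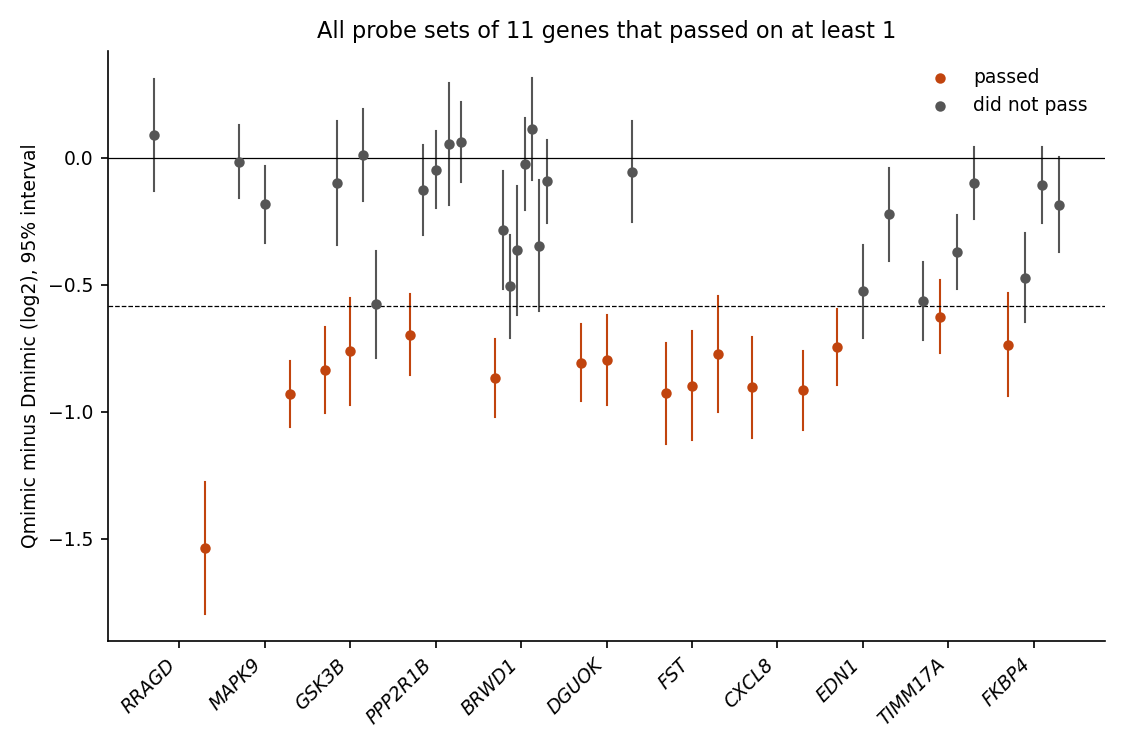
Qmimic minus Dmimic difference (log2, vertical axis) with its 95% interval for every probe set of 11 genes that passed on at least 1, grouped by gene along the horizontal axis; the dashed line marks 1.5-fold lower with Qmimic. All probe sets of FST and CXCL8 lie below the dashed line, whereas RRAGD and MAPK9 have 1 probe set far below it and others near 0.

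A further 16 probe sets had an adjusted limma p under 0.05 but differed by less than 1.5-fold, 13 lower with Qmimic and 3 higher. The lower ones included ATAD1, a mitochondrial AAA ATPase, on both 227585_at (-0.56) and 224850_at (-0.53), and CNOT8, a deadenylase of the CCR4-NOT complex that carries out microRNA-directed decay. CNOT8 read 9.13, 9.10 and 9.21 with Qmimic and 9.59, 9.72 and 9.75 with Dmimic, a difference of -0.54 with an adjusted limma p of 0.0365. The higher ones were CCN3 (0.51), a matricellular protein, ZNF114 (0.46) and IRX3 (0.43), a homeobox factor. CCN3 read 7.52, 7.60 and 7.56 with Qmimic and 7.05, 7.06 and 7.06 with Dmimic, so its groups were narrow and apart.

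Past 1.5-fold without passing there were 24 probe sets lower with Qmimic and 23 higher. The lower ones, named here after their values were seen, were led by 2 probe sets of COL1A1, a chain of type I collagen. On 1556499_s_at it read 4.88, 5.30 and 4.97 with Qmimic and 6.06, 6.26 and 6.85 with Dmimic, a difference of -1.34 (-1.77 to -0.92) with an adjusted limma p of 0.0573. On 202310_s_at the difference was -1.15, with an adjusted limma p of 0.0636. The groups were apart on both and Dmimic replicate 3 was the highest array, while the brightest probe set of COL1A1 differed by -0.05. THBS1, the matrix glycoprotein thrombospondin-1, was lower on 4 probe sets by -1.04, -0.66, -0.63 and -0.63, with adjusted limma p of 0.0892 to 0.181. Dmimic replicate 3 was the highest array at each of these 4 as well. RDX, which links actin to the membrane, and AKIRIN2 each had 2 such probe sets, and AP1S3, a clathrin adaptor subunit, had 3.

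Among the 23 that were higher without passing, the largest difference was at 1 of 12 probe sets of the long noncoding RNA MALAT1, 227510_x_at, which read 8.94, 9.33 and 9.09 with Qmimic and 8.13, 7.18 and 8.09 with Dmimic. Its difference was 1.32 (0.80 to 1.83), with an adjusted limma p of 0.109, and Dmimic replicate 2 was the lowest array; the other 11 probe sets ranged from -0.09 to 0.74. ID4 and ID3, inhibitors of basic helix-loop-helix factors and known targets of BMP signalling, differed by 0.65 and 0.79 with adjusted limma p of 0.0626 and 0.201. AGR2, a protein disulphide isomerase, read 7.36, 7.19 and 7.04 against 6.39, 6.68 and 6.23, a difference of 0.76 with an adjusted limma p of 0.0881. The cytokine CSF1 (0.59), the cytokine receptor LIFR (0.60) and the interferon-inducible genes IFIH1 (0.59) and GBP2 (0.65) had adjusted limma p of 0.131 to 0.192. PRRG4 (0.75), FMNL2 (0.61) and PLEKHH1 (0.60) likewise missed the threshold. At all of these named probe sets higher with Qmimic the groups did not overlap, which was a condition for naming them. ID3 has 1 probe set. Besides MALAT1, the other genes have further probe sets, all higher with Qmimic by less than the one named. Their smallest differences were 0.10 for ID4, 0.03 for AGR2, 0.11 for CSF1 and 0.07 for LIFR. For IFIH1, GBP2, PRRG4, FMNL2 and PLEKHH1 they were 0.07, 0.46, 0.05, 0.05 and 0.19.

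The control arrays took no part in the fit, and they were used to place each called probe set. The place of AllStar is 0 at the Qmimic mean and 1 at the Dmimic mean, so that a value above 1 lies beyond Dmimic. Among the 34 called probe sets, AllStar replicates 1 and 2 were both nearer to Dmimic at 25 (73.5%) and both nearer to Qmimic at 3 (8.82%). Over all 8772 probe sets whose mimic groups did not overlap, both were nearer to Dmimic at 40.3% and both nearer to Qmimic at 32.2%. The median place of their mean was 0.758 at the called probe sets and 0.596 at the non-overlapping ones. The called probe sets have a wide gap by their selection, and nearly all were lower with Qmimic. Neither the shares nor the medians of the 2 sets can therefore be compared like for like. Some genes are also counted at more than 1 of the 34. Replicate 1 was nearer to Dmimic at 27 of the 34 and replicate 2 at 29. AllStar replicate 3, the array that stood apart, was nearer to Dmimic at 14, and all 3 control arrays were so at 12. Since both mimics are set against the same control arrays here, these places describe the levels side by side and are not independent comparisons with control.

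At 8 of the 34, replicates 1 and 2 both lay within or beyond the Dmimic range. RRAGD is the clearest: the controls read 7.11 and 7.19, above every Dmimic array, and Qmimic lay 1.73 below their mean on the log2 scale while Dmimic lay 0.19 below it. MAPK9 read 7.97 and 8.08 in the controls, within and above the Dmimic arrays, with Qmimic at -0.99 and Dmimic at -0.06 from their mean. NCBP2AS2, TSPAN6 and PLEKHA1 also had both controls above all Dmimic arrays, at places of 1.11, 1.21 and 1.33, and MORN4 was at 1.18. GSK3B, DGUOK, FKBP4 and EXT2 were close to Dmimic as well, at 0.99, 0.96, 0.87 and 0.88. At each of these the Dmimic mean lay nearer to the controls than the Qmimic mean did.

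At 17 of the 34 both controls lay in the gap between the groups. CXCL8 read 7.01 and 7.0 in the controls on 211506_s_at, above Qmimic by 0.62 and below Dmimic by 0.29. FST read 10.39 and 10.61 on 204948_s_at, and BRWD1 read 7.39 and 7.56. At FST the Qmimic mean was at -0.48 and the Dmimic mean at 0.44 from the controls, so the mimics lay on opposite sides by like amounts. BRWD1 was similar on its called probe set, with -0.50 and 0.37. Its groups were also apart on 238890_at, 1553227_s_at, 231960_at and 214820_at. There Qmimic was at 0.43, 0.08, 0.05 and -0.15 from the controls and Dmimic at 0.71, 0.44, 0.39 and 0.36. The side of the controls on which Qmimic lay thus differed between the probe sets of BRWD1. APOLD1, SAMTOR and ANKRD37 had places of 0.54, 0.58 and 0.61. The called probe sets have a wide gap by their selection, so the share of controls in the gap cannot be read against that of other probe sets.

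Only 3 called probe sets had both controls nearer to Qmimic: EDN1, IL7 and the unnamed 211984_at. At EDN1 the controls read 9.04 and 9.12, below all 6 mimic arrays, with Qmimic at 0.40 and Dmimic at 1.15 above their mean. On this probe set both mimics thus read above the controls, Dmimic by more. The same held on 218995_s_at, with Qmimic at 0.51 and Dmimic at 1.04 above the mean of the controls. On the dimmer 1564630_at, by contrast, Qmimic was at -0.21 and Dmimic at 0.02 from the mean of the controls. IL7 read 6.33 and 6.09 in the controls, the first within the Qmimic range and the second between the groups. Its Qmimic mean was 0.17 above the controls and its Dmimic mean was -0.45 from them. In AllStar replicate 3, IL7 read 4.65, below every other array.

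**Figure D4:**
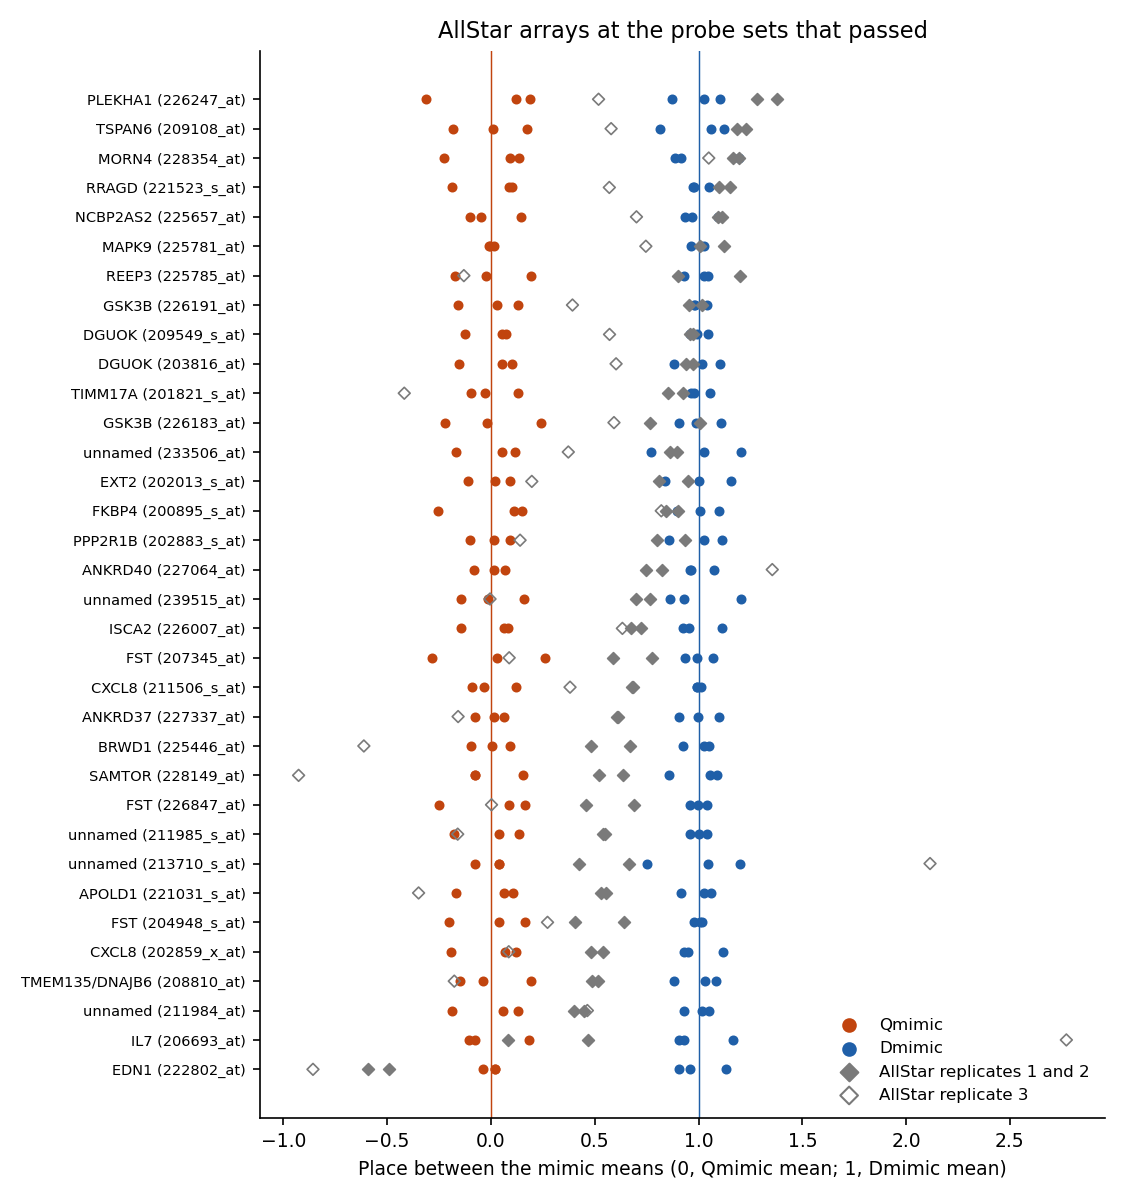
Place of every array at the 34 called probe sets, scaled so that 0 is the Qmimic mean and 1 the Dmimic mean (horizontal axis, no unit); each line of points is a probe set, sorted by the place of AllStar replicates 1 and 2. These controls lie near or beyond 1 in the upper part, between the groups in the middle, and on the Qmimic side for IL7 and EDN1 at the bottom; AllStar replicate 3 (open) is spread more widely, from below the Qmimic arrays to beyond the Dmimic arrays.

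The counts were not alike in the 2 directions. Of the 56 probe sets with a fall of 1.5-fold or more and groups that did not overlap, both controls were nearer to Dmimic at 34 (60.7%) and nearer to Qmimic at 12 (21.4%). Of the 21 that were higher by that much, both controls were nearer to Dmimic at 8 and nearer to Qmimic at 8 (38.1% each). The difference between these shares was not tested. Among the latter, the controls of MALAT1, LIFR and ID4 were at the Dmimic level (places 1.08, 1.07 and 1.13) and those of AGR2, PRRG4 and ID3 at the Qmimic level (-0.11, -0.04 and -0.16).

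Apart from EDN1, none of the genes fixed for their link to the study or to its earlier results passed. AXL read 11.54, 11.85 and 11.83 with Qmimic and 11.77, 11.84 and 11.55 with Dmimic on 202686_s_at, against 12.27 and 12.31 in AllStar replicates 1 and 2. The mimic groups overlapped, with a difference of 0.02 (-0.22 to 0.26; exact two-sided permutation p = 0.8, where 0.1 is the smallest that 3 arrays against 3 allow). On the other AXL probe set, 202685_s_at, the mimic groups also overlapped, with a difference of 0.14 (-0.35 to 0.62). Its exact two-sided permutation p was 0.7. That interval reached past 1.5-fold, so the probe set bounds the AXL difference less tightly. Dmimic replicate 3 was the lowest array there, at 7.53. HMGA2, an architectural chromatin protein, differed by 0.13 (-0.21 to 0.47) and overlapped too. The G1 kinases CDK4 (0.34) and CDK6 (0.20), the cyclin CCNE2 (0.40), the receptor MET (0.33) and the deacetylase SIRT1 (0.44) were each higher with Qmimic by an amount that did not pass, with adjusted limma p of 0.315 to 0.556. Dmimic replicate 3 was the lowest mimic array at each of the 5, and without it the differences were 0.12 for CDK4, 0.14 for CDK6, 0.13 for CCNE2, 0.17 for MET and 0.34 for SIRT1. At all 5, AllStar replicates 1 and 2 averaged above both mimic means. HHIP, the hedgehog-interacting protein, read 8.19, 7.97 and 7.70 with Qmimic and 8.51, 8.24 and 9.12 with Dmimic, a difference of -0.67 with an adjusted limma p of 0.347 and with Dmimic replicate 3 the highest array. OSCP1 differed by -0.38 and overlapped. Without Dmimic replicate 3 these differences were -0.42 and -0.08, and that of HMGA2 was 0.32.

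Pathway lists held 5 of the called genes. The lists were written with earlier results of these data known, so this share cannot be read against that over all genes. A gene entered through its brightest probe set on average, and of the 19775 genes so entered 1 was called higher and 16 were called lower with Qmimic, with a median difference of -0.01. In the 26 lists, 818 of 880 symbols were measured. A called member appeared in 5 lists, 1 in each and lower with Qmimic: CXCL8 among 27 NF-kB and cytokine genes, EDN1 among 31 endothelin and cyclic AMP genes, FST among 38 TGF-beta, BMP and activin genes, GSK3B among 43 WNT and NOTCH genes and ANKRD37 among 34 glycolysis and hypoxia genes. In the other 21 lists no member was called. Medians of the 5 lists were 0.05, 0.04, -0.07, 0.02 and 0.02, so the called member did not stand for its list.

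Of 48 measured genes reported as miR-34a targets, none was called. Over all 19775 genes 1 was called higher and 16 lower, so the absence of a call among 48 says little about the list. Of the 48, 33 were above 0 (68.8%, against 45.9% over all genes) and the median difference was 0.08. At an unadjusted limma p under 0.05, 9 were higher and 3 lower with Qmimic, a share of 25% against 10.5% over all genes. The list was written with earlier results known, so that share cannot be read as an excess. By array the list lay at 0.00 (0.00258), 0.10 and 0.08 around its own mean with Qmimic and at -0.03, 0.07 and -0.17 with Dmimic, so the groups overlapped. Dmimic replicate 3 was the lowest array, and without it the median difference was 0.013. Those with the smallest p were IGF2BP3 (-0.38), LGR4 (0.56), NOTCH2 (0.31) and SIRT1 (0.44), with adjusted limma p of 0.165 to 0.315. The list lay lower than in AllStar replicates 1 and 2 with both mimics, by a median of -0.30 with Qmimic and -0.40 with Dmimic. For 41 of the 48 the 95% interval of the difference between mimics lay inside 1.5-fold, a share of 85.4% against 97.9% over all genes.

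The widest list medians were those of proliferation genes, and they followed 1 array. Of 53 DNA replication and G1/S genes, 47 were above 0 (88.7%), with a median of 0.17. Of 45 mitosis and G2/M genes 42 were above 0 (93.3%), with a median of 0.14. Over all genes 45.9% were above 0. No member of either list was called. By array, the replication genes lay at -0.08, 0.14 and 0.20 around their own mean with Qmimic and at 0.04, 0.13 and -0.45 with Dmimic. The mitosis genes lay at -0.15, 0.15 and 0.21 with Qmimic and at 0.11, 0.23 and -0.56 with Dmimic. In both lists Dmimic replicate 3 was the lowest array and Qmimic replicate 1 the next. Without Dmimic replicate 3 the medians were 0.00 for replication (0.00164) and -0.10 for mitosis, so the sign of the latter turned. In whole-well RNA, fewer dividing cells and less of these messages per cell cannot be told apart.

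Medians of the other lists ran from -0.10 to 0.06, against -0.01 over all genes. Their shares of genes with an unadjusted limma p under 0.05 ran from 0% to 34.5%, against 10.5% over all genes. The highest share was that of the mesenchymal and invasion genes, with 4 higher and 6 lower with Qmimic. These shares cannot be read as an excess, since the lists were written with earlier results known. Of 91 cilium and intraflagellar transport genes, 63 were below 0 (69.2%, against 54.1% over all genes), with a median of -0.08. By array they were at 0.04, -0.05 and -0.08 with Qmimic and -0.00397, -0.00318 and 0.13 with Dmimic, so the groups overlapped, and without Dmimic replicate 3, the highest array, the median was -0.03. Of 48 interferon response genes 35 were above 0 (72.9%, against 45.9% over all genes), with a median of 0.06. Interferon genes by array were at 0.10, 0.04 and -0.04 with Qmimic and -0.08, -0.08 and 0.05 with Dmimic, so the groups overlapped. In the microRNA silencing and mRNA decay list (37 genes, median 0.04) CNOT8 (-0.54), TNRC6C (-0.40) and CNOT7 (-0.27) were lower and DICER1 (0.51) higher with Qmimic, and none was called. Of 30 ribosomal protein genes, all differed by between -0.03 and 0.07. Of 19 leukocyte markers 14 were below 0 (73.7%, against 54.1% over all genes), with a median of -0.10. Their mean log2 level was 5.20 to 5.33 with Qmimic and 5.30 to 5.34 with Dmimic, and PTPRC, the pan-leukocyte gene, was at 3.91 and 3.81. Of 21 fibroblast and endothelial markers 14 were below 0 (66.7%), with mean log2 levels of 5.11 to 5.15 and 5.13 to 5.17. Of 17 luminal breast markers 9 were below 0 (52.9%), at 7.37 to 7.44 and 7.31 to 7.37. What part the markers of other cell types have in the calls was not tested.

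**Figure D5:**
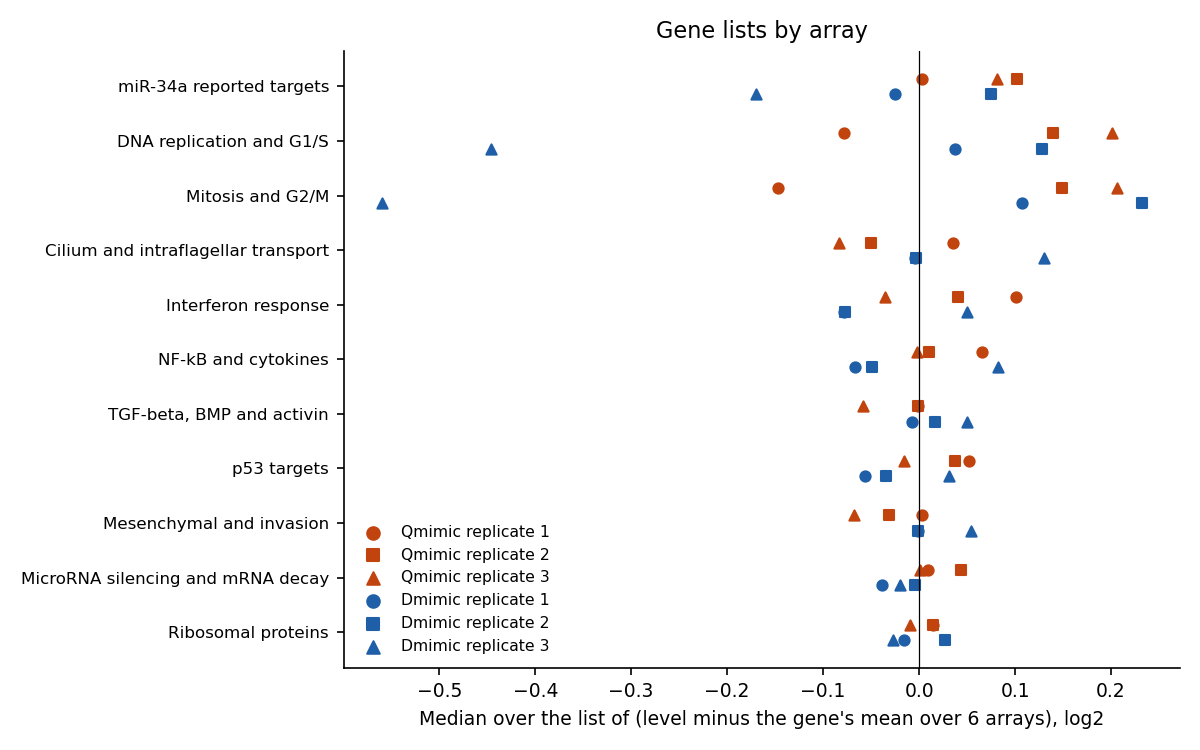
For 11 gene lists (vertical axis), the median over the list's genes of the level minus the gene's mean over the 6 arrays (horizontal axis, log2), 1 point per array. Replication and mitosis genes spread widely because Dmimic replicate 3 lies at -0.45 and -0.56, and in the other lists every array lies within 0.2 of 0.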

How the data were processed

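Total RNA of the 9 wells was hybridised to 1 array each. The authors deposited log2 signals per probe set, made with RMA per the submitters' processing notes, which also name limma; versions were not given in the sources used here. The table held 54675 probe sets; 62 controls were set aside, and all of the other 54613 were tested, low values included. The series' platform annotation names 1 gene for 41091, several for 1801 and none for 11721. With limma 3.58.1 in R 4.3.3, a linear model with empirical Bayes moderation was fitted to the 6 mimic arrays without covariates. Calls needed a Benjamini-Hochberg adjusted p under 0.05 and 1.5-fold. The script was tested on simulated data. The text names the 12 called genes with the largest difference per direction, filled up to 12 with non-overlapping genes past 1.5-fold of smallest p, fixed genes (AXL, HMGA2, EDN1, HHIP, OSCP1, CDK4, CDK6, CCNE2, MET and SIRT1), up to 4 genes per list, and others chosen after their values were seen. The members and lists were chosen with earlier results of these data known. The replicate numbers did not pair the arrays: residual correlations were -0.275, -0.0497 and -0.261. Alternatives covered the arrays fitted, thresholds, normalization and moderation.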

Additional observations from a re-analysis of the deposited data

How the results depend on the processing

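The 34 calls depended on which arrays, block and threshold were used. Leaving out 1 of the 6 mimic arrays gave 0 to 25 calls, with 0 without Qmimic replicate 2, where limma's smallest adjusted p was 0.0804 and 3750 probe sets had an unadjusted p under 0.05. Leaving out 1 mimic array and AllStar replicate 3 from a 3-group model, a choice made after seeing the data, gave 24 to 50. The model of all 9 arrays gave 0. The replicate number as a block, which the labels do not say marks a shared day, gave 1 call, and a difference of at least 1.5 on the log2 scale, the other reading of the series' threshold, also gave 1. The adjusted p alone gave 50. Normalization, filter and moderation gave 28 to 40. All 34 probe sets kept their direction in every alternative. Their mimic groups did not overlap, so leaving out an array could not have turned it. The AXL difference of 0.02 on 202686_s_at ranged from -0.0654 to 0.119 with 1 array left out. It was below 0 without Qmimic replicate 2 (-0.0347), Qmimic replicate 3 (-0.0255) or Dmimic replicate 3. With AllStar replicate 3 added, 12 called probe sets had all controls nearer to Dmimic. Between 9 and 17 of the 26 list medians were below 0 across alternatives, against 12. The cause of these changes was not tested. No detection calls were used, so probe sets near background cannot be marked.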
